A study of Mus musculus with 105 samples.

Results

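The genes described here are the cytochrome P450 (Cyp) genes of families 1 to 4 in the mouse, other than the Cyp2b and Cyp3a subfamilies. They were chosen by name alone: every protein-coding gene whose symbol gives a family number from 1 to 4, a subfamily letter and a gene number, with Cyp2b and Cyp3a removed. The rule gave 66 of the 53379 genes counted, 3 of family 1, 43 of family 2 and 20 of family 4. The series held 105 RNA-seq libraries, made from polyadenylated RNA with a stranded kit. Cultured tumour lines were sequenced in the condition Setdb1KO (KO), with matched Ctrl and WT libraries: B16, a melanoma line, B16OVA, a B16 line labelled OVA, MCA101OVA, a fibrosarcoma line, and MC38, a colon adenocarcinoma line, with 3 libraries per condition (6 for B16OVA). Setdb1 encodes a histone H3 lysine methyltransferase. All lines grew in RPMI with puromycin, and the labels do not say whether a condition is 1 clone or a pool. A further 7 WT tumour libraries came from run B176, 1 each of MC38-OVA, MC38-GFP, MC38, MCA101-OVA, MCA101, B16-OVA and B16, and 5 libraries from melanocytes grown for 2 to 3 weeks from newborn C57BL6/J mice. The main comparison here is between 12 tissues of WT female C57BL/6 mice, kept in RNAlater, with 4 libraries each: liver, kidney, lung, stomach, colon, skin, ovary, heart, brain, LN (so labelled), spleen and thymus. The labels give no age, and do not say whether the replicates of a group are separate animals or cultures, so p-values here measure the spread between these libraries.

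Cytochrome P450 enzymes are haem proteins of the endoplasmic reticulum that insert an oxygen atom into small molecules, with electrons passed on by the P450 reductase Por and, for some reactions, cytochrome b5. Families 1 to 3 are best known for the oxidation of drugs, plant compounds and pollutants in hepatocytes, and several of family 2 also make signalling epoxides of arachidonic acid. Family 4 enzymes hydroxylate the end of fatty acid chains, including leukotrienes and the long chains of the skin barrier. In the mouse many of these genes stand in tandem arrays of near-identical copies.

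Promoter sequences from RefSeq (build GRCm38.p6; 250 bases before to 50 after the annotated start) were found for 51 of the 66 genes. The pair Cyp2a4 (chr7:26306942-26307241, plus strand) and Cyp2a5 (chr7:26835089-26835388, plus strand) is shown because the 2 windows were 97.7% identical while the levels of the 2 genes across tissues, given below, were not alike. Capitals mark the letters that differ: 5 substitutions, which lie at positions -232, -120, -90, -46 and 20 of the Cyp2a4 window counted from its start, and 1 letter at an end of each window.
Cyp2a4 promoter: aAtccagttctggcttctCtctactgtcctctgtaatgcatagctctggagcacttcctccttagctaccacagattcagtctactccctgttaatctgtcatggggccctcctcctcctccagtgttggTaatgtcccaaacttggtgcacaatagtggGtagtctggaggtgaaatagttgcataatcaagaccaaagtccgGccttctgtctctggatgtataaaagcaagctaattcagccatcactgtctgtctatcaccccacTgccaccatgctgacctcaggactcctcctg
Cyp2a5 promoter: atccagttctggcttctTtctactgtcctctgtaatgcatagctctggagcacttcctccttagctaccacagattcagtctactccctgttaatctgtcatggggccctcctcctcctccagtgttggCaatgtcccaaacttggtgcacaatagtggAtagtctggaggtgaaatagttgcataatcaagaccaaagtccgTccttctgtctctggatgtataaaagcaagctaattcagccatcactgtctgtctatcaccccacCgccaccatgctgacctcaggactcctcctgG

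Another set is shown because its members share a short run of letters and stand in 1 gene array on chromosome 19. The letters CAAAGTCCA are a form of the site bound by the hepatocyte factor HNF4. They were present on either strand in 6 of the 51 genes with a promoter, all of the Cyp2c subfamily. Of the 32851 promoters in the table, 0.475% had them. The 51 genes had 57 promoters, and a gene was counted if any of its promoters had the letters, while the share is per promoter. The 49-base windows below carry them in capitals. Their coordinates are chr19:39812831-39812879 (Cyp2c40), chr19:39649139-39649187 (Cyp2c67), chr19:39741150-39741198 (Cyp2c68), chr19:39886816-39886864 (Cyp2c69), chr19:40187322-40187370 (Cyp2c70), all on the minus strand, and chr19:39060870-39060918 (Cyp2c65, plus strand). The first letter of the run lay between position -125 (Cyp2c67) and position -45 (Cyp2c40). A match describes the letters, not a site in use.
Cyp2c40: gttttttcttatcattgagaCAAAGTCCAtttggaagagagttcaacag
Cyp2c67: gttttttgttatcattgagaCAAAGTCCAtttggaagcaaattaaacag
Cyp2c68: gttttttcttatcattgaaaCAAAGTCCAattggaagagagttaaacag
Cyp2c69: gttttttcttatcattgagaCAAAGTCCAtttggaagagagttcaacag
Cyp2c70: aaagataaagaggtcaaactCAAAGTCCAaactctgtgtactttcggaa
Cyp2c65: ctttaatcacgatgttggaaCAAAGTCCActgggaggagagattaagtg

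Library totals, in units of 1e6 counts, lay between 53.6 and 254 in tissues, 17.2 and 50.4 in the tumour lines, and 19.9 and 30.6 in melanocytes. No 2 libraries of a group were identical (154 pairs compared). Summed marker levels were highest in the organ they mark for liver, kidney, lung, stomach, colon, skin, ovary, heart, brain and thymus, and B cell markers were highest in spleen and LN. Melanocyte markers summed to 12419 CPM or more (CPM, counts per 1e6 counts of the library) in melanocytes and to 13514 CPM or more in both B16 lines, against at most 25.7 CPM in MCA101OVA and MC38 cells. Some libraries also held markers of another organ. Kidney replicate 2 had adrenal genes (Cyp21a1 at 2146 CPM, against 0.00787 CPM or less in the other kidneys), stomach replicate 3 and spleen replicate 4 had the pancreatic gene Ctrb1 (3495 and 1375 CPM), skin replicate 2 had the gastric gene Gkn1 (103 CPM), and kidney replicate 1 had Alb at 163 CPM, against 13.3 to 14.6 CPM in the other kidneys. Liver replicate 2 had skeletal muscle markers at a summed 386.5 CPM, against 0.759 to 0.980 CPM in the other livers, and without it liver still had 31 genes called. Without kidney 2, skin 2, spleen 4 and stomach 3 together, no count of genes called in a tissue moved by over 1.5 times. In 8 of the 12 tissues replicate 4 came from another run (D804) than the rest (D812), and a term for the run moved no such count by that much either.

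Nearly all of the P450 genes were called higher in 1 of the tissues, and liver was the organ with the largest number of them. A gene was called higher in a tissue when edgeR's quasi-likelihood test of that tissue against the mean of the other 11 gave an adjusted p under 0.05 and a log2 fold of at least 2, and the tissue had its highest mean. By this rule 61 of the 66 genes (92.4%) were called in 1 tissue, against 59.3% of the 26242 genes tested. Liver had 31 of them, where 4.34% of all genes tested were called; kidney had 7 (3.91% of all genes), colon 6 (4.26%), skin 6 (5.54%), lung 3 (4.45%), stomach 2 (1.92%), brain 2 (12.2%), and ovary (4.87%), heart (4.08%), spleen (4.0%) and thymus (6.67%) 1 each. LN had 0 (3.07%). The median log2 fold of the 63 genes that passed the filter on low counts was 7.67 in liver, against -0.45 over all genes, and 2.50 in kidney, against -0.10; it lay between -3.64 (brain) and 0.23 (stomach) in the other tissues. The genes together took 20742 ± 3097 CPM in liver, 5128 ± 971 CPM in colon, 4024 ± 541 CPM in kidney and 3738 ± 705 CPM in lung (mean ± SD, n = 4 each), and between 141 ± 53.98 CPM (heart) and 1148 ± 171 CPM (stomach) in the remaining tissues. Liver, with 2.07% of its counts in these genes, did not overlap any other tissue. In bulk tissue, fewer cells of a type and less RNA per cell cannot be told apart. Scaling also matters here: the TMM factors of edgeR were 0.458 to 0.498 in liver and 0.557 to 1.49 elsewhere, which raised every log2 fold of liver against kidney by 0.87 over plain totals, and 6 genes have another highest tissue once CPM are scaled by them (Cyp2c65, Cyp2f2, Cyp2j13, Cyp2j5, Cyp4f13 and Cyp4f17). Values below are plain CPM. Log2 folds are from the TMM-scaled fit unless stated, and folds bounded by a floor of counts use plain totals.

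**Figure D1:**
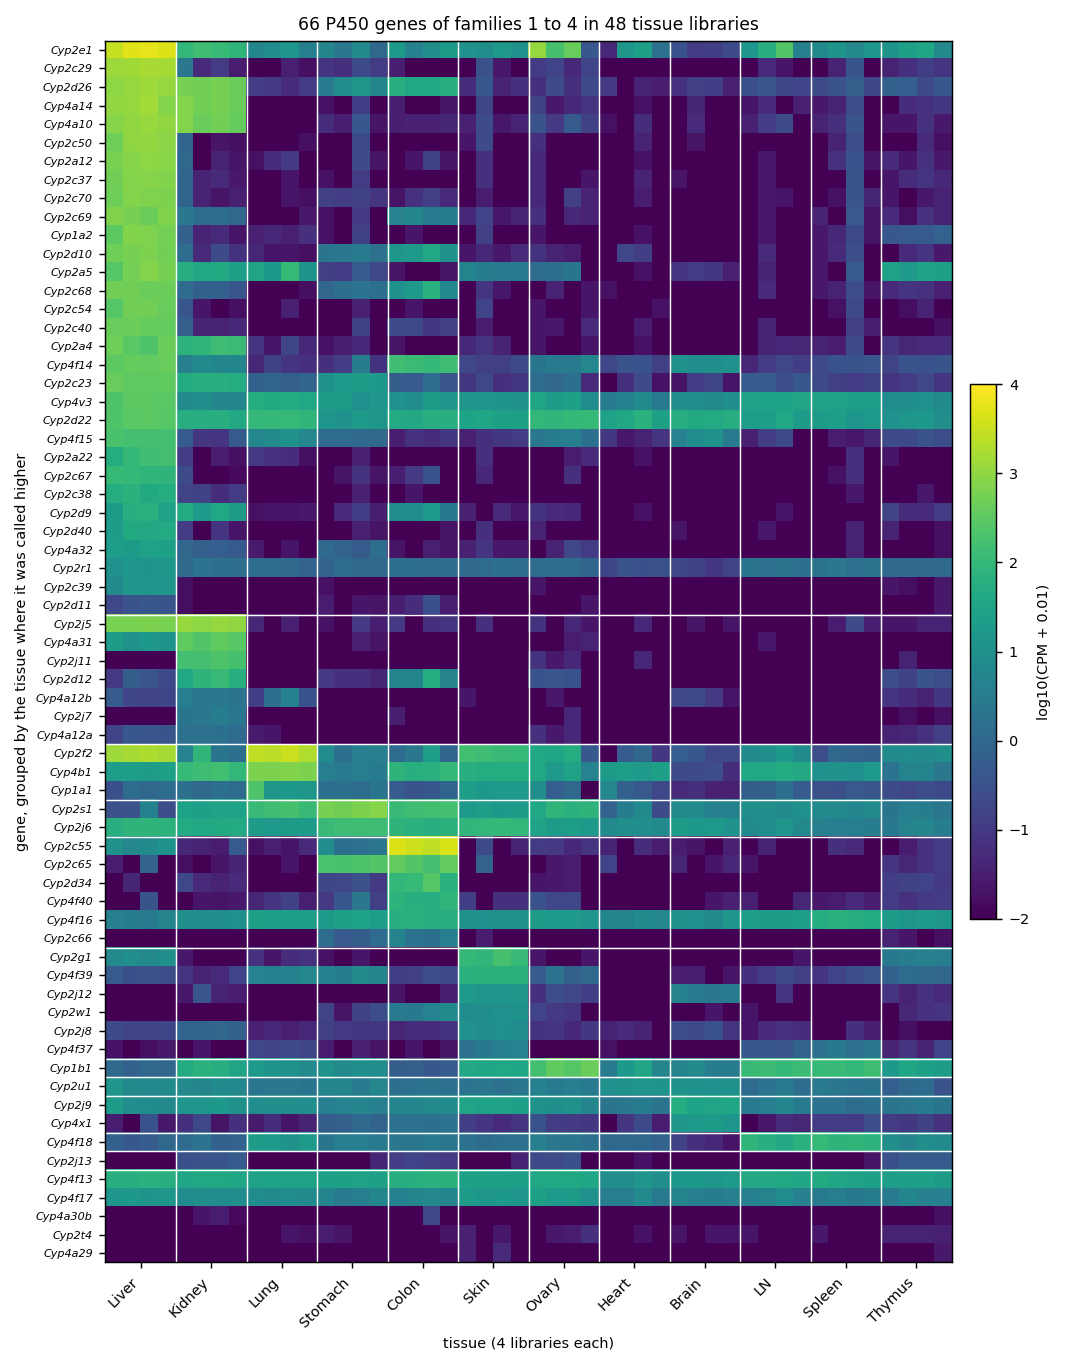
Level of the 66 P450 genes (rows, grouped by the tissue where each was called higher) in each of the 48 tissue libraries (columns, 4 per tissue), as log10 of CPM plus 0.01. The 31 liver genes form the block of bright cells at the upper left, and the rows of Cyp4f13 and Cyp4f17, called in no tissue, are above 1 CPM in all 12.

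All 4 Cyp2a genes, 12 of 15 Cyp2c genes and 6 of 8 Cyp2d genes were called in liver. Cyp2e1, which oxidises ethanol and paracetamol, had 3014, 5339, 5877 and 4834 CPM in liver replicates 1 to 4. At 2208 ± 576 CPM per kb of exon it led liver per length, ahead of the naphthalene-oxidising Cyp2f2 (767 ± 93.6 CPM per kb). Cyp2c29, a major hepatic drug oxidase, had 1326, 1422, 1636 and 1593 CPM in liver, against 2.42, 0.0407, 0.102 and 0.0197 CPM in kidney, the tissue next in order. Every liver was above every kidney for both genes, and the kidney with the most Cyp2c29 was replicate 1, the one with the most Alb. Cyp1a2, which oxidises caffeine and arylamines, had 307.9, 717, 708 and 565 CPM in liver and at most 0.750 CPM in thymus, next in order (log2 fold 11.49 ± 0.82 SE, adjusted p 7.74e-15 by edgeR over all pairs of tissues). Cyp2a12, a steroid hydroxylase, had 615, 802, 944 and 875 CPM in liver, Cyp2c37 496, 778, 803.6 and 726 CPM, and Cyp2c50 483, 987, 1074 and 901 CPM; the last 2 belong to the epoxygenase subfamily. Each of these 3 genes stayed at or under 1.08 CPM in every kidney, and for each the lowest liver was replicate 1. In all, 14 of the 31 liver genes had a liver mean over 100 times that of the next tissue, 6 were between 10 and 100 times, and 11 were under 10 times.

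The liver genes with the smaller ratios were shared mainly with kidney or were present in many tissues. Cyp2d26 had 947, 1148, 1336 and 1126 CPM in liver, against 583, 499, 581 and 420 CPM in kidney. The fatty acid hydroxylases Cyp4a14 and Cyp4a10, both known targets of the receptor Ppara, had 1062, 1142, 1474 and 789 CPM and 802, 1018, 1214 and 1003 CPM in liver; in kidney they had 787, 516, 577 and 424 CPM and 767, 429, 524 and 381 CPM. For all 3 genes every liver was above every kidney. Cyp2a4, a testosterone hydroxylase, had 483, 291, 222 and 460 CPM in liver and 76.2, 88.4, 138 and 123 CPM in kidney, and was above 1 CPM in these 2 tissues only. Cyp2a5, the coumarin hydroxylase whose promoter window is nearly the same, had 266, 571, 754 and 601 CPM in liver, 53.7, 39.2, 43.02 and 23.9 CPM in kidney, 31.2, 15.7, 102 and 12.9 CPM in lung, and 27.3, 17.7, 28.0 and 24.7 CPM in thymus. Per kb of exon, kidney had 61.1 ± 16.6 CPM of Cyp2a4 and 19.3 ± 5.94 CPM of Cyp2a5, and lung 0.0416 ± 0.0398 CPM of Cyp2a4 and 19.6 ± 20.3 CPM of Cyp2a5 (SD, n = 4 each). Of the 50-base stretches of their transcripts, 38.0% (Cyp2a4) and 37.0% (Cyp2a5) occurred in another gene's transcript, so how reads were shared out between them is uncertain. Cyp2r1, the main vitamin D hydroxylase of liver, was low but steady at 11.01, 14.4, 12.8 and 15.2 CPM in liver, against 2.03, 2.39, 1.78 and 1.97 CPM in spleen, next in order (log2 fold 4.08 ± 0.21 SE, adjusted p 1.27e-19 by edgeR).

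Liver replicate 1 stood apart from the other 3 livers for part of this group. Cyp2e1, Cyp1a2, Cyp2c50, Cyp2c37 and Cyp2a5 were all lowest there. Cyp2c69, a gene known to be higher in female than in male mouse liver, was highest there (743 CPM, against 576, 442 and 715 CPM). Of other such genes, Cyp2a4 was also highest there, whereas Cyp4a14 was not, and Cyp2c40 is not given by library here. Beside these values, the receptor gene Nr1i3 had 191, 394, 523 and 425 CPM in replicates 1 to 4, the repressor genes Bcl6 9.60, 24.8, 26.0 and 27.0 CPM, and Cux2 124, 28.7, 30.5 and 70.6 CPM. These 3 were chosen from a list of 20 regulators after their values were seen, and the rest of the list is not set beside them. The part of these 3 genes in the P450 levels was not tested. Leaving out this library left the number of genes called in liver at 31.

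**Figure D2:**
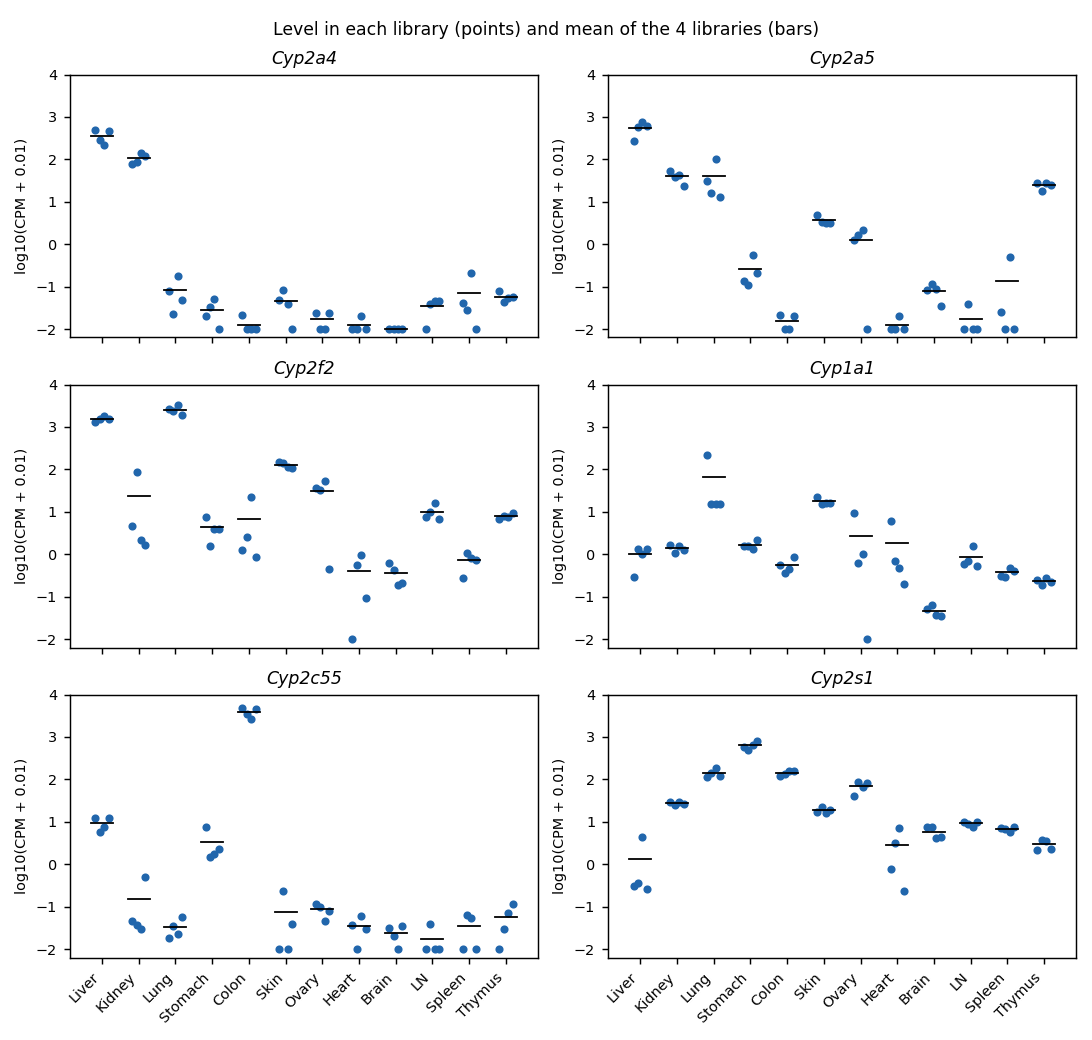
Level of Cyp2a4, Cyp2a5, Cyp2f2, Cyp1a1, Cyp2c55 and Cyp2s1 in the 12 tissues as log10 of CPM plus 0.01; points are libraries and bars the means of 4. Cyp2a4 is high in liver and kidney only while Cyp2a5 is also present in lung, skin and thymus, and the Cyp1a1 mean in lung is set by 1 library at 222 CPM.

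Kidney had a smaller set of its own. Set against kidney in the same fit, liver was higher for 41 of the 63 genes tested (23.5% of all genes were) and lower for 14 (31.6%), and 8 were not called; the median log2 fold of liver over kidney was 2.94, against -0.13 over all genes. Cyp2j5, an arachidonic acid epoxygenase, was the leading P450 of kidney per length (460 ± 47.4 CPM per kb), and had 605, 637, 646 and 630 CPM in liver, against 1213, 957, 1116 and 1027 CPM in kidney. In plain CPM each liver was below each kidney, but with TMM scaling the log2 fold of liver over kidney was 0.09 ± 0.40 (SE; adjusted p 0.899 by edgeR), so its order depends on the scaling. Cyp4a31 had 19.4, 11.9, 16.03 and 12.9 CPM in liver, against 351, 236, 339.1 and 280 CPM in kidney, and liver was lower by either scaling (log2 fold -3.46 ± 0.28 SE, adjusted p 2.69e-09 by edgeR), though not by DESeq2 (adjusted p 0.148, the highest of its alternatives, which went down to 1.77e-10). Cyp2j11 had no count in any liver, against 165, 169, 214 and 176.1 CPM in kidney. In plain CPM liver was thus at least 23234-fold lower, taking a floor of 3 counts over the 4 livers. Its neighbour Cyp2j7 was likewise without counts in liver, which was at least 318.6-fold lower, and for Cyp2j13 and Cyp2j12 liver was at least 55.0-fold and 8.47-fold lower. All of these bounds use plain totals. TMM scaling, which raises liver against kidney by 0.87 on the log2 scale, would lower them. The Cyp2j12 bound rests on 37 counts in kidney (0.108 ± 0.172 CPM, mean ± SD). Without the 4 libraries named above with markers of another organ, kidney 2 among them, its call was lost (adjusted p 0.0552 by edgeR). Cyp2d12 had 37.8, 80.6, 108 and 59.7 CPM in kidney, against 5.15, 5.05, 51.3 and 4.93 CPM in colon, next in order; the ranges overlapped through colon replicate 3 alone.

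**Figure D3:**
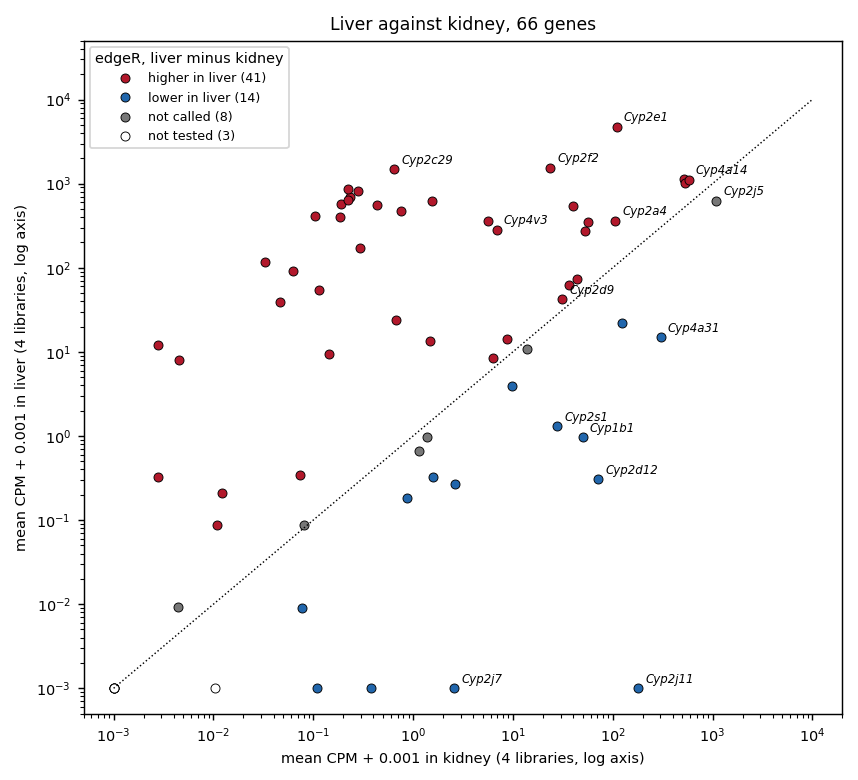
Mean CPM plus 0.001 of each P450 gene in liver (vertical) against kidney (horizontal), n = 4 libraries each, both on log axes, with genes marked by whether liver was higher (41), lower (14) or not called (8). The 3 genes not tested are open circles and the dotted line marks equal levels; Cyp2e1 and Cyp2c29 lie far above it, Cyp2j11 and Cyp4a31 below it, and Cyp2j5 slightly below it.

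Some members are known to differ between male and female mice, and all tissue donors here were female. Of the genes known to be higher in males, Cyp4a12a and Cyp4a12b were under 1 CPM in every liver, and had 1.22 to 1.76 CPM and 2.01 to 3.75 CPM in kidney. Cyp2d9, the third, had 18.9, 57.1, 65.4 and 26.5 CPM in liver, against 47.9, 17.9, 36.9 and 20.995 CPM in kidney, and these ranges overlapped (log2 fold 1.31 ± 0.46 SE, adjusted p 0.0167 by edgeR). With plain totals the log2 fold was 0.44 and the adjusted p 0.429, and over all alternatives that p was 0.00641 to 0.429. The 4 genes known to be higher in females, Cyp2a4, Cyp2c69, Cyp4a14 and Cyp2c40, had 2334 to 2684 CPM together per liver, and the 3 male-typical genes 19.6 to 65.99 CPM. Many of these are near-identical copies: 48.9% of the 50-base stretches of Cyp4a12a, 49.4% of Cyp4a12b, 54.3% of Cyp2c69 and 60.3% of Cyp2c40 occur in another transcript, so their single values are uncertain.

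In lung the leading gene was Cyp2f2, known in club cells as the oxidase that activates naphthalene. It had 2649, 2342, 3267 and 1881 CPM in lung, against 1337, 1524, 1798 and 1552 CPM in liver. Each lung was above each liver in plain CPM, but after TMM scaling the log2 fold of lung over liver was -0.57 ± 0.91 (SE; adjusted p 0.611 by edgeR over all pairs). Kidney replicate 2, the library with adrenal genes, had 85.7 CPM of Cyp2f2, against 4.49, 2.11 and 1.60 CPM in the other kidneys; the part of adrenal tissue in this value was not tested. Cyp4b1, which oxidises fatty acids and several lung toxicants, had 638, 642, 726 and 669 CPM in lung and 103, 140, 154 and 94.9 CPM in kidney, next in order, without overlap (log2 fold 2.05 ± 0.34 SE, adjusted p 2.05e-06). Cyp1a1, the classic gene induced through the aryl hydrocarbon receptor (Ahr), was called in lung on the strength of 1 library: lungs had 222, 14.9, 15.6 and 15.03 CPM, against 21.99, 15.6, 16.4 and 16.4 CPM in skin. Without lung replicate 1 its log2 fold in lung was 3.86 and skin had the higher mean, so that the call was lost. In that library the Ahr target gene Nqo1 had 17.3 CPM, against 4.76, 5.22 and 4.76 CPM in the other lungs, and Ahrr 0.810 CPM, against 0.409 to 0.482 CPM, whereas Tiparp (40.3 CPM, against 38.4 to 45.8) and Aldh3a1 (31.8 CPM, against 12.4 to 38.7) lay within the range of the others. Ahr itself was called in lung, with 115 CPM on average.

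Stomach had 2 genes called and colon 6. Cyp2s1, an Ahr-responsive enzyme of surface epithelia, had 593, 495, 663 and 817 CPM in stomach, against 118, 134, 155 and 158 CPM in colon (log2 fold 2.63 ± 0.58 SE, adjusted p 0.000124 by edgeR). Every stomach was above every colon, and Cyp2s1 was over 1 CPM in all 12 tissues. Cyp2j6, a gut member of the epoxygenase subfamily, had 119, 133, 134 and 139 CPM in stomach and 89.9, 92.6, 96.9 and 91.4 CPM in skin (log2 fold 1.21 ± 0.19 SE, adjusted p 4.6e-07), again without overlap. The leading gene of colon was Cyp2c55, which makes hydroxylated arachidonic acid: colon had 4743, 3478, 2698 and 4543 CPM, against 12.3, 5.89, 7.35 and 12.3 CPM in liver, next in order (log2 fold 7.58 ± 0.72 SE, adjusted p 6.24e-12). At 1938 ± 479 CPM per kb in colon it was of the same order as Cyp2e1 in liver. Its array neighbours Cyp2c65 and Cyp2c66 were called in colon too. Cyp2c65 had 356, 248, 159 and 371 CPM in colon, against 202, 186, 206 and 254 CPM in stomach, which overlapped (log2 fold -0.03 ± 0.64 SE, adjusted p 0.996), and Cyp2c66 had 1.62 to 4.81 CPM in colon.

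Colon replicate 3 differed from the other colons in opposite directions among the P450 genes. It was highest for Cyp2d34 (255 CPM, against 92.5, 104 and 65.95 CPM), Cyp2d12 (51.3 CPM, against 4.93 to 5.15 CPM), Cyp2d10 (40.3 CPM, against 11.3 to 17.7 CPM) and Cyp2c68 (67.3 CPM, against 6.37 to 17.7 CPM). It was lowest for Cyp2c55, Cyp2c65, Cyp2c66 and the family 4 genes Cyp4f40 (55.4 CPM, against 62.6 to 85.2 CPM) and Cyp4f14 (99.2 CPM, against 125 to 148 CPM). Beside these, the goblet cell gene Muc2 had 22789, 24506, 12798 and 28331 CPM in replicates 1 to 4, the surface colonocyte gene Car1 9715, 6803, 4800 and 10113 CPM, and the chloride exchanger Slc26a3 330.9, 383, 794 and 158 CPM; their part in the P450 values was not tested. Without this library colon kept 6 genes called. Cyp2d34 was at 0.304 CPM or less in every stomach, next in order (log2 fold of colon over stomach 8.97 ± 0.62 SE, adjusted p 1.9e-11 by edgeR).

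Skin had 6 genes called. Cyp2g1, best known from olfactory mucosa, had 96.5, 89.0, 183 and 116 CPM in skin, against 6.61, 9.25, 6.595 and 9.93 CPM in liver (log2 fold 2.56 ± 0.31 SE, adjusted p 3.46e-08). Cyp4f39, whose human counterpart hydroxylates the very long fatty acids of the skin barrier lipids, varied least, with 68.4, 73.2, 70.6 and 70.05 CPM in skin, and stomach had 3.41 to 6.71 CPM (log2 fold 3.12 ± 0.39 SE, adjusted p 6.96e-09). Cyp2j12 had 17.1, 13.2, 14.5 and 14.8 CPM in skin, against 4.90, 2.89, 2.52 and 2.91 CPM in brain (log2 fold 2.06 ± 0.62 SE, adjusted p 0.00569). For these 3 genes every skin library was above every library of the next tissue. Of the other 3, Cyp2j8 (7.90 to 10.9 CPM) was above kidney without overlap, and neither Cyp2w1 over colon (adjusted p 0.111) nor Cyp4f37 over spleen (adjusted p 0.143) passed the test against the next tissue.

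In the remaining tissues single genes led. Cyp1b1, which hydroxylates oestrogens and polycyclic hydrocarbons outside the liver, had 155, 343.9, 255 and 427 CPM in ovary, against 120, 131, 101 and 129 CPM in LN (log2 fold 1.16 ± 0.36 SE, adjusted p 0.00466 by edgeR), without overlap. Spleen followed with 104, 120, 92.4 and 138 CPM, and for this gene liver was below kidney (log2 fold of liver over kidney -4.80 ± 0.42 SE, adjusted p 9.34e-13). Cyp2u1, a fatty acid hydroxylase, had 11.1, 12.3, 13.6 and 12.9 CPM in heart, against 11.8, 11.6, 11.1 and 12.1 CPM in brain. These ranges overlapped: the test called heart higher after TMM scaling (log2 fold 0.91 ± 0.27 SE, adjusted p 0.00347), and with plain totals the heart call was lost. In brain, Cyp4x1, a brain-enriched member, had 15.2, 17.6, 18.5 and 14.4 CPM, against 1.67 to 1.93 CPM in colon (log2 fold 3.09 ± 0.63 SE, adjusted p 4.4e-05). Cyp2j9 had 52.3, 30.1, 32.5 and 35.2 CPM in brain, against 31.5, 27.0, 28.6 and 24.1 CPM in skin, with overlap (log2 fold 0.55 ± 0.24 SE, adjusted p 0.0433). Cyp4f18, which inactivates leukotriene B4 in neutrophils, had 105, 79.5, 84.9 and 77.1 CPM in spleen, against 83.2, 57.6, 42.5 and 68.5 CPM in LN, and the test did not call a difference (adjusted p 0.126). Lung, next, had 20.1, 17.6, 11.7 and 16.9 CPM. Cyp2j13, called in thymus, was under 0.6 CPM in every thymus and kidney, and a difference between them was not called (adjusted p 0.663).

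Cyp2e1 varied widely between libraries in several tissues other than liver, such as stomach (4.13 ± 2.90 CPM, mean ± SD, n = 4). This gene is given by library for 4 more such tissues. It had 1118, 177, 395 and 0.425 CPM in ovary, 14.02, 56.9, 250 and 4.05 CPM in LN, 0.0364, 14.8, 23.8 and 1.69 CPM in heart, and 12.99, 25.9, 33.9 and 6.57 CPM in thymus. The fat cell hormone gene Adipoq had 1419, 475, 846 and 0.0685 CPM in ovary, 18.8, 121, 598 and 5.31 CPM in LN, 0.0182, 13.4, 26.4 and 1.20 CPM in heart, and 17.7, 74.3, 92.3 and 14.3 CPM in thymus. In each of these 4 tissues the order of the 4 libraries was the same for both genes. Replicate 4, lowest in ovary, LN and thymus, was of run D804 there. No rule set the choice of these 4 tissues in advance. Stomach, lung (8.05 ± 4.43 CPM of Cyp2e1, mean ± SD, n = 4) and colon (12.1 ± 6.56 CPM) were not set beside Adipoq. All 6 fat cell markers examined were above 1 CPM on average in ovary, LN and thymus and 5 of 6 in heart, with summed levels per library of 28.1 to 3870 CPM in ovary, 15.2 to 1443 CPM in LN, 16.7 to 230 CPM in heart and 35.1 to 431 CPM in thymus. In liver the sum was 0.503 to 1.09 CPM, with Ucp1 at 0. The part of fat cells in the Cyp2e1 values was not tested. Cyp2e1 remained called in liver, with a log2 fold of 4.98 ± 1.20 (SE) over ovary (adjusted p 0.000389 by edgeR).

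**Figure D4:**
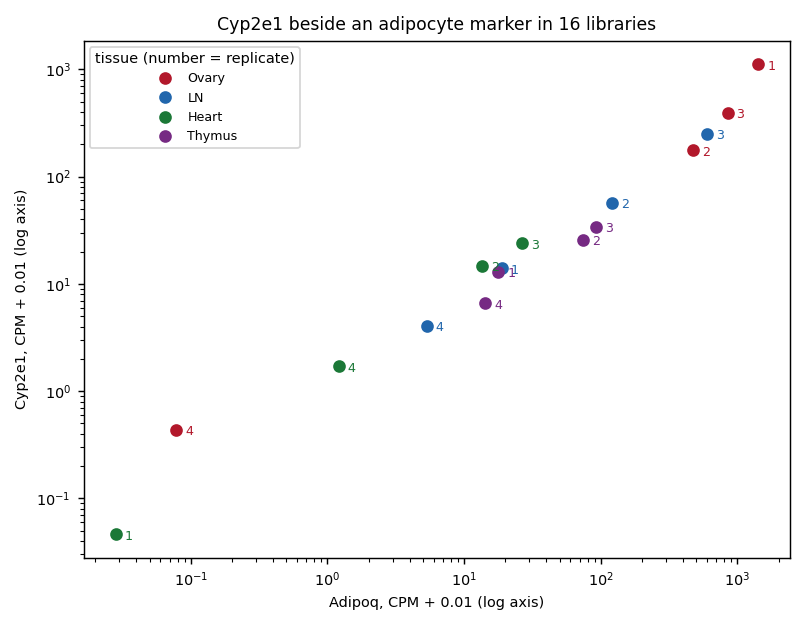
CPM plus 0.01 of Cyp2e1 (vertical) against that of the fat cell gene Adipoq (horizontal), both on log axes, in the libraries of ovary, LN, heart and thymus, each point numbered by its replicate. The 4 ovaries spread along both axes (Cyp2e1 0.425 to 1118 CPM, Adipoq 0.0685 to 1419 CPM), and in each tissue the library with more Adipoq has more Cyp2e1.

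Few of the genes were broadly expressed. Mean levels over 1 CPM in all 12 tissues were found for 8 of the 66 genes, 21 reached that level in 1 tissue and 5 in none. Among the broad genes were Cyp2d22, a drug oxidase of the debrisoquine hydroxylase subfamily, Cyp4v3, the counterpart of a human gene of retinal fatty acid oxidation, Cyp2s1, Cyp2j6, Cyp2j9, Cyp4f13, Cyp4f16 and Cyp4f17. Cyp2d22 had 219, 287, 314.6 and 275 CPM in liver, against 98.5, 98.0, 104 and 89.6 CPM in lung, next in order, and led both heart and brain per length (10.4 and 12.6 CPM per kb). Cyp4f13 and Cyp4f17 were tested and called in no tissue. The 3 genes that did not pass the filter on low counts, Cyp2t4, Cyp4a29 and Cyp4a30b, had means of 0.044 CPM or less in every tissue.

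The genes that work with P450 enzymes followed the liver to different degrees. Of 11 partner genes, 8 were called in liver by the same rule (4.34% of all genes tested), among them the cytochrome b5 gene Cyb5a (735 CPM on average), its reductase Cyb5r3 (420 CPM) and the epoxide hydrolase Ephx2 (538 CPM). Fmo1 was called in kidney and Fmo2 in lung. Por, the electron donor of every microsomal P450, was not called in any tissue: liver had 419, 322.5, 324.4 and 298 CPM, kidney 246, 284, 290 and 330.8 CPM and lung 298, 355, 479 and 308.5 CPM, which overlap. These are plain CPM, and a call needs the highest plain mean. TMM factors were 0.458 to 0.498 in liver and 0.557 or more elsewhere. Scaling by them raises liver against every other tissue, so the order for Por depends on the scaling. Of 12 conjugating enzymes 9 were called in liver and 1 in stomach. Of 20 regulators, 5 were called in liver (Nr1i2, Nr1i3, Ppara, Rxra and Nr0b2), 4 in skin (5.54% of all genes), 3 in colon (4.26%) and 1 each in kidney, lung, stomach and brain. Hnf4a, whose site is shown above, was not called in liver. In plain CPM it had 837, 640, 700 and 567 CPM in liver, 780, 699, 848 and 771 CPM in kidney and 754, 750, 848 and 749 CPM in colon. Its order, like that of Por, depends on the scaling. Of 21 P450 genes of families 5 and up, 18 were tested, and 7 of those were called in liver, 4 in kidney (3.91% of all genes), 2 in ovary (4.87%) and 1 each in lung, skin, brain and spleen.

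Position along the chromosome and promoter letters can be set beside these calls. In the Cyp2c array on chromosome 19 (start positions as in the annotation), the first 3 genes, Cyp2c55 (39007019), Cyp2c65 (39061015) and Cyp2c66 (39113898), were those called in colon. The next 11, Cyp2c29 (39269405) to Cyp2c70 (40153353), were all called in liver, as was Cyp2c23, which lies apart at 44005022. The Cyp2j array on chromosome 4 was mixed, with 8 genes called in 5 tissues, and the Cyp4f genes were called in 4 tissues. In the promoters, the letters TATAAA on either strand were present in 24 of 51 genes, 19 of the 26 called in liver and 5 of the other 25, and in 13.6% of all promoters. The letters GTTAAT, a core of the site of the hepatocyte factor HNF1, were in 8 of 26 liver genes and 2 of the other 25 (7.1% of all promoters). CAAAGT, which includes every CAAAGTCCA, was in 13 of 26 and 7 of 25 (14.4% of all). GCGTG, the core letters bound by Ahr, was in 4 of 26 and 8 of 25 (32.4% of all), and both Cyp1a1 and Cyp1b1 were among them. The longer HNF1 site was in 1 gene (0.155% of all promoters). The direct repeat bound by Ppara and its partner (0.0396% of all), the C/EBP letters TTGCGCAA (0.183%) and the CDX2 letters TTTATGG (2.75%) were in 0. Counts are of genes with the letters in any of their promoters, while the shares of all are per promoter. Promoters of near-identical copies share their letters, so these genes are not independent.

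In the cultured tumour lines 14 of the 66 genes passed the filter on low counts, against 16809 of all 53379 gene rows. For the counts that follow, no share over all genes was taken. Of the 66, 54 stayed under 1 CPM in all 45 line libraries and 25 had no count in any of them, while 9 reached a mean over 1 CPM in at least 1 group. Cyp2j6 differed between lines, with 111 ± 29.2 CPM in B16 KO cells and 127 ± 40.9 CPM in B16 Ctrl cells, against 4.20 ± 2.13 CPM in MC38 KO cells and 4.45 ± 1.87 CPM in MC38 Ctrl cells (mean ± SD, n = 3 each). Cyp4v3, Cyp2j9 and Cyp4f17 also had higher means in both B16 lines than in MCA101OVA and MC38 cells, where Cyp2j9 had 0 counts in every KO, Ctrl and WT library outside run B176; lines were not tested against each other. Cyp4f16 and Cyp4f13, by contrast, were present in every line, at 8.56 to 29.003 CPM and 2.67 to 28.6 CPM per library. Melanocytes had 12 genes over 1 CPM on average. Cyp1b1 had 74.96, 13.7, 16.4, 21.4 and 22.1 CPM in melanocytes and at most 0.997 CPM in any of the 45 line libraries. Cyp2d22 (22.7 to 59.2 CPM in melanocytes, at most 0.428 CPM in the lines) and Cyp4b1 (4.79 to 37.4 CPM, at most 0.183 CPM) were separated in the same way. Melanocytes share run D176 with the MC38 libraries and with B16OVA replicates 4 to 6 but were grown as a different kind of culture, and they were not tested against the lines.

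**Figure D5:**
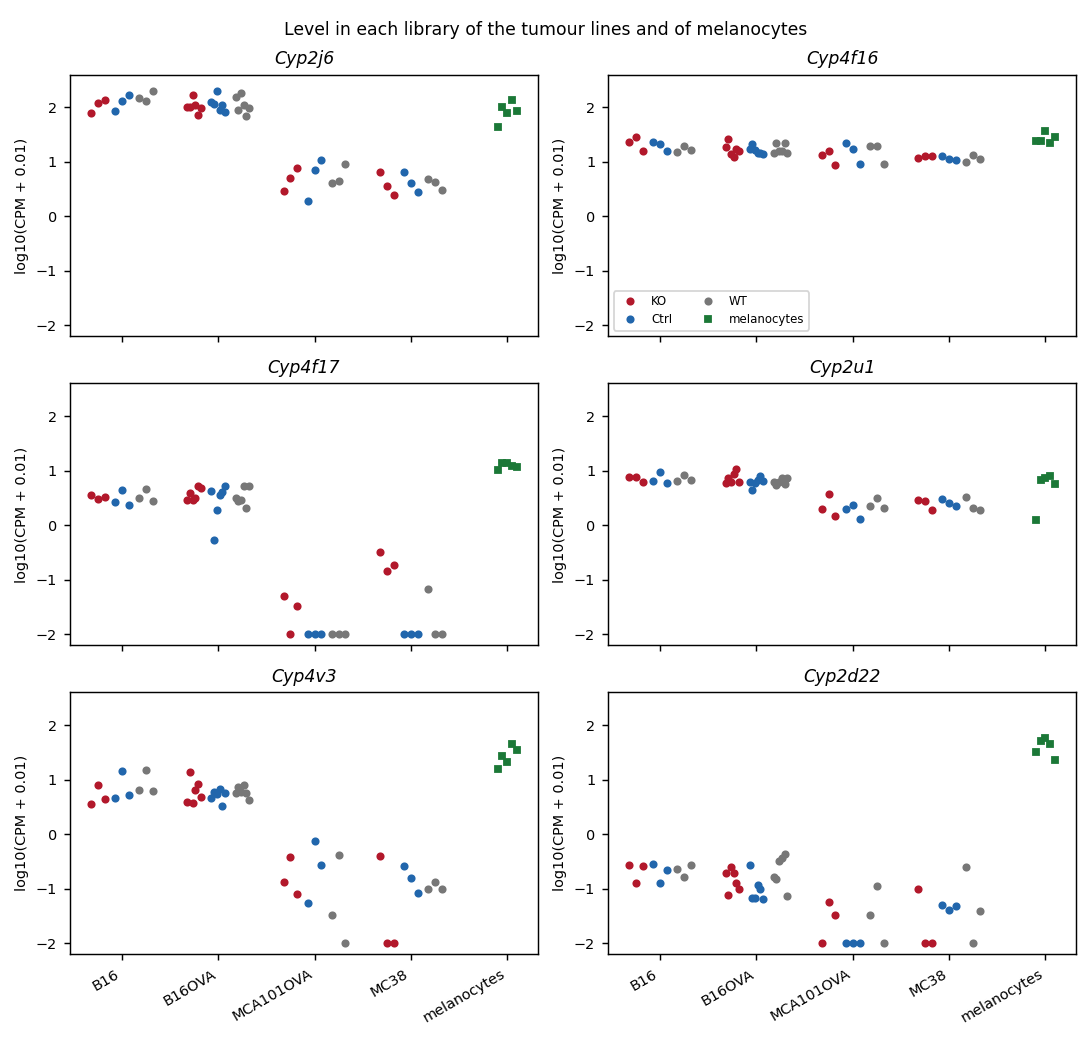
Level of 6 P450 genes in each library of the 4 tumour lines outside run B176, by condition (KO, Ctrl, WT), and of melanocytes, as log10 of CPM plus 0.01. Cyp4f16 is even across lines, Cyp2j6, Cyp4f17 and Cyp4v3 are lower in MCA101OVA and MC38 cells, and Cyp2d22 is above 22 CPM in the 5 melanocyte libraries and at most 0.428 CPM in the lines.

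Of these genes, 1 was called between Setdb1 KO and Ctrl cells (edgeR adjusted p under 0.05), in 1 of the 4 lines. Setdb1 itself was lower in KO than in Ctrl cells of B16 (on average 17.1 CPM in KO against 62.2 CPM in Ctrl; adjusted p 9.8e-05 by edgeR), B16OVA (33.5 CPM in KO against 70.4 CPM in Ctrl; 0.000217), where the ranges overlapped (15.6 to 49.9 CPM in KO, 21.1 to 99.4 CPM in Ctrl), and MCA101OVA (27.9 CPM in KO against 68.0 CPM in Ctrl; 0.00749). In MC38 it was not called, with 73.2 CPM in the libraries labelled KO against 101 CPM in Ctrl, and the ranges overlapped too (60.05 to 85.3 CPM in KO, 54.9 to 125 CPM in Ctrl). Of the 14 P450 genes that passed the filter on low counts, B16 had 0 called (0.66% of all 16809 genes were higher and 0.0297% lower), B16OVA 0 (0.994% and 0.0595%), MCA101OVA 0 (0.339% and 0.00595%) and MC38 1 (0.464% higher and 0.0% lower). At an unadjusted p under 0.05 the counts were 0, 0, 1 and 3, and for Ctrl against WT they were 0, 3, 1 and 0. The median log2 fold of the 14 was -0.08 (B16), 0.12 (B16OVA), 0.17 (MCA101OVA) and -0.09 (MC38), and over all genes it lay between -0.01 and 0.01. Ctrl against WT called none of the 14 in any line, nor any other gene (0.0%). Its median log2 fold of the 14 was -0.09 (B16), -0.21 (B16OVA), -0.01 (MCA101OVA) and 0.16 (MC38).

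The gene called was Cyp4f17. It had 7, 3 and 3 counts in the libraries labelled MC38 KO, 0 in all 3 of Ctrl, and 2, 0 and 0 in WT. These KO libraries were at 0.207 ± 0.0910 CPM, at least 5.88-fold above Ctrl cells against a floor of 3 counts over the group (edgeR adjusted p 0.00879), and the call was lost without 1 of several single libraries (adjusted p 0.0796 to 0.128 without Ctrl replicate 2, Ctrl replicate 3 or KO replicate 1, and 0.0066 to 0.128 over all alternatives). The KO effect in the MC38 libraries was larger than that in B16OVA (fitted difference of log2 folds 5.44 ± 1.20 SE, a size that depends on the prior count because MC38 Ctrl had 0 counts; adjusted p 0.0336 by edgeR; 0.202% of all genes were higher and 0.0595% lower by this test). No other P450 gene differed so in MC38, and 0 did in B16 (0.0% of all genes) or MCA101OVA (0.0535% higher, 0.0476% lower). B16 cells, in which the gene was on throughout, had 3.29 CPM in KO and 3.16 CPM in Ctrl.

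In MCA101OVA the lowest p belonged to Cyp4a12b, with 17, 43 and 18 counts in KO, 0 in all 3 of Ctrl and 1, 0 and 0 in WT. KO cells were at 0.712 ± 0.294 CPM, at least 16.9-fold above Ctrl cells, and the adjusted p was 0.0585 by edgeR; the gene was called against WT in place of Ctrl (adjusted p 0.0398, and between 0.00068 and 0.519 over its alternatives). Every KO library was above every Ctrl and WT library. Cyp2c55 showed 38, 14 and 10 counts in the libraries labelled MC38 KO, against 5, 1 and 3 in Ctrl, a ratio of 9.35 with a 95% counting interval of 4.62 to 21.4, and did not pass (adjusted p 0.0899). Each of these 3 genes stayed under 2 CPM in every KO and Ctrl library of its comparison. In B16 the lowest p belonged to Cyp4f40, Cyp2j9 and Cyp4x1 (log2 folds -2.29, -0.54 and -1.17, adjusted p 1.0 each) and in B16OVA to Cyp4f13, Cyp4x1 and Cyp1a1 (log2 folds 0.66, -1.73 and 0.95, adjusted p 0.726, 0.811 and 0.846).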

How the data were processed

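Gene counts were deposited by the authors as whole-number counts per gene and library, one table for tissues, lines and melanocytes; reads had been processed with Trim Galore, FastQC, STAR and HTSeq on mm10, per the submitters' processing notes. Versions, strand setting and the treatment of multi-mapping reads were not given in the sources used here. Of 53379 gene rows, 53274 matched a GENCODE symbol. The genes and lists described here were chosen with earlier results of these data known.

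Counts were tested with edgeR 4.0.16 (quasi-likelihood, TMM factors, filterByExpr, Benjamini-Hochberg adjustment; called at adjusted p under 0.05) in R 4.3.3. The 48 tissue libraries were fitted together (36 residual degrees of freedom), and tissue pairs were adjusted over all genes and all 66 pairs. The 45 line libraries were fitted with the run as covariate (31 residual degrees of freedom). CPM use plain library totals, as do folds bounded by a floor and ratios with a counting interval. Floors are 3 counts, and floors and intervals cover counting error only. The fits were tested on simulated data. DESeq2 1.42.0, other filters and scalings, a replicate block and left-out libraries were alternatives. Values in every library are given for up to 8 genes called in liver, 4 in kidney and 3 in each other tissue by mean CPM. They are also given for Cyp4f17 in MC38, Cyp4a12b in MCA101OVA, and for Cyp1a1, Cyp1a2, Cyp1b1, Cyp2r1, Cyp2u1 and Cyp2s1. The genes of lowest p in B16 and B16OVA are given by log2 fold and adjusted p alone. Other genes named with values were chosen after their values were seen.

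KO and Ctrl libraries of a line were put in sets by their library names, though no label ties a KO library to a given Ctrl library. Same-set libraries deviated together in every set (lowest correlation B16 0.51, B16OVA 0.43, MCA101OVA 0.29, MC38 0.30). Libraries of different sets were not set beside these, so a pairing is not shown. A block for the set changed no call among these genes. The P450 genes of Cyp2b and Cyp3a were not analysed here.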

Additional observations from a re-analysis of the deposited data

Results flagged for a closer look

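Samples far from the other replicates were sought in each combination of a P450 gene and a group of 4 or 5 libraries (6 for B16OVA) with a mean of at least 10 CPM. There were 9, which is 5.11% of the combinations, and chance alone marks about 1 in 20 of them, which is 8.8. Cyp1a1 had 222.4 CPM in lung replicate 1, against 14.92 to 15.61 CPM in the other lungs, and 21.99 CPM in skin replicate 1, against 15.62 to 16.41 CPM. A further 3 came from liver replicate 1: Cyp2c39 at 7.465 CPM, against 13.42 to 13.97 CPM, Cyp2d40 at 20.25 CPM, against 42.76 to 47.14 CPM, and Cyp2j9 at 19.44 CPM, against 6.546 to 8.642 CPM. Cyp2d12 had 51.28 CPM in colon replicate 3, against 4.93 to 5.15 CPM, Cyp2f2 had 85.67 CPM in kidney replicate 2, against 1.602 to 4.491 CPM, and Cyp4b1 had 16.87 CPM in spleen replicate 4, against 10.67 to 11.22 CPM. Cyp1b1 had 74.96 CPM in melanocyte replicate 1, against 13.73 to 22.14 CPM.

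The effect of Setdb1 KO on Cyp4f17 differed between lines: the fitted log2 fold in MC38 was 5.443 above that in B16OVA, by the test of the difference itself. It rests on 13 counts in 3 libraries labelled KO and 0 in Ctrl, so that its size depends on the prior count, and Setdb1 was not called lower in those KO libraries.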

How the results depend on the processing

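Over all alternatives, 931 counts of calls kept within 1.5 times of the value given and 14 did not. A fold minimum of 1 on the log2 scale gave 2 genes in ovary; a minimum of 3 gave 0 in heart and 1 in brain. With plain totals, chosen after seeing the data, heart had 0. Thymus had 0 when the highest mean was taken from TMM-scaled CPM (also chosen after seeing the data), 2 with no filter and 0 with at least 1 CPM in 4 libraries. In MCA101OVA, 1 gene was called with no filter, with no run term and with WT in place of Ctrl. In MC38, 0 were called from the 2 groups alone, and leaving out 1 library gave 0 to 1; Cyp4f17 had an adjusted p of 0.0066 to 0.128 over its alternatives and 0.0599 against WT. Leaving out 1 library gave 61 genes in total, 38 to 42 higher and 12 to 14 lower in liver than in kidney, 2 to 3 in lung and 6 to 7 in skin.

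Of single genes, 8 of 61 tissue calls, 8 of 55 calls between liver and kidney and the 1 KO call were lost under some alternative. Cyp4a10 and Cyp4a14 lost the difference between liver and kidney with DESeq2 (adjusted p 0.0846 and 0.209; 0.00223 to 0.111 and 0.000558 to 0.209 over all alternatives). Without liver replicate 3 the sign of liver against kidney turned for Cyp2c65 (-0.1865, with -0.1865 to 5.847 over all alternatives) and Cyp4f40 (-3.323, with -3.323 to 4.583). With WT in place of Ctrl the sign turned for Cyp4x1 (1.426) and Cyp1a1 (-0.4105) in B16OVA and Cyp2d22 (-0.4064) in MCA101OVA. The cause was not tested. DESeq2 gave no adjusted p for Cyp1a1 in lung. Tissue replicates share only a library-number set: 59 of 264 pairs of tissues and sets correlated over 0.1, and 34 of 48 libraries correlated best with their own set. Same-set pairs had a median correlation of 0.042, against -0.014 for the other pairs. The main fit had no term for the set, and a replicate block for it called 61 genes. In the lines, 52 of the 66 genes did not pass the filter on low counts, so differences in them were not tested.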

Other observations

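The 7 WT tumour libraries of run B176, 1 per line, entered no comparison. Their summed level of the 66 P450 genes was 116 CPM in B16OVA and 130 CPM in B16, and 28.4 to 55.4 CPM in the 5 libraries of MC38-OVA, MC38-GFP, MC38, MCA101OVA and MCA101. Cyp4v3, which was under 1 CPM on average in the MC38 KO and Ctrl cells of the main set (0.13 and 0.16 CPM), had 13.6 CPM in the MC38-OVA, 16.8 CPM in the MC38-GFP and 13.03 CPM in the MC38 library of that run, but 0.27 and 0.41 CPM in its MCA101OVA and MCA101 libraries. The B16OVA and B16 libraries of the run had 13.7 and 15.5 CPM of Cyp4v3. In the MC38-OVA, MC38-GFP and MC38 libraries Cyp2j9 had 0.204 to 0.931 CPM. Cyp2j6 had 7.08 to 12.4 CPM in them and 49.9 and 50.8 CPM in B16OVA and B16. With 1 library of each, no test was made between them or between runs.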
